A study of Mus musculus with 6 samples.

Results

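Tight junction and gap junction genes were examined in RNA of the mouse cochlear modiolus. Members were the protein-coding genes whose symbols mark them as claudins (Cldn), zonula occludens scaffold proteins (Tjp), MARVEL proteins (Ocln and Marveld), junctional adhesion molecules (JAMs: F11r and Jam) or connexins (Gja to Gje), with Gjb2 and Gjb6 left out. This choice went by gene names and was made with earlier results of these data known. It gave 61 genes of the 21951 protein-coding genes in GENCODE M21, of which 33 were claudins, 3 scaffold proteins, 4 MARVEL proteins, 3 JAMs and 18 connexins. The 6 libraries came from the modiolus, the bony core of the cochlea with the spiral ganglion, of C57BL/6 mice. The control group (n = 3) received saline, and the degenerated group (n = 3) received 1 g/kg kanamycin followed by 0.4 g/kg furosemide, a drug combination known to damage hair cells and to be followed by loss of spiral ganglion neurons (SGNs). Per the study's methods the mice were males, 8 weeks old at the start of the model, and the time point chosen for the transcriptome was 30 days after the injection. Whether a library holds 1 mouse or several is not stated, so the p-values measure the spread between these libraries, which may be partly technical.

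Tight junctions seal the space between neighbouring cells of an epithelium or endothelium. Claudins form their strands and set which ions may pass, occludin and the other MARVEL proteins and the JAMs sit beside them in the membrane, and Tjp proteins tie the strands to actin. Connexins form gap junctions, channels that join the cytoplasm of neighbouring cells. In the cochlea, tight junctions separate the potassium-rich endolymph from perilymph, claudins also seal the turns of myelin, and connexins couple supporting cells, fibrocytes and glia.

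The labels call the cell type spiral ganglion neuron, while the sample was whole modiolus tissue. All 14 of the SGN markers examined (among them Nefh, Snap25 and Calb2) were detected, with a summed level of 12448 to 15935 CPM (normalised read counts, scaled to library size) in the controls and 7394 to 10989 CPM in the degenerated group. Schwann cell, endothelial, epithelial, hair cell, stria vascularis, fibroblast, bone and macrophage markers were detected as well, so the libraries hold RNA of many cell types. A lower level in such tissue can come from fewer cells of a type or from less RNA per cell, and a higher level from more of either. These cannot be told apart here. The libraries held between 12480876 and 15549319 counts. On the first principal component (30.1% of the variance), control replicate 1 and degenerated replicates 1 and 2 lay apart from the other 3 libraries, so a term for this split was also fitted. The second component (20.1%) separated the groups, with the controls at -36.0 to -22.1 and the degenerated libraries at 22.7 to 30.4.

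The deposited table lists a part of the annotated transcripts, and each gene was counted by the sum over those listed. For 17 of the 61 members 0 transcripts were listed, and these are not analysed here. Among them were Cldn4, Cldn5, Cldn8, Cldn13, Cldn16, Cldn22, Cldn34b1, Cldn34c3, Cldn34c4, Jam2, Gja6, Gjb5, Gjd3 and Gjd4. Cldn5 is the claudin of blood vessel endothelium, so that the vascular barrier is described here without its main claudin. Of the 44 members with a listed transcript, 29 passed the filter on low counts and were tested, and for 9 of these the table has every annotated transcript. The 15 others were not tested, and 9 of these had 0 counts in all 6 libraries, which allows up to 0.0346 CPM of their listed transcripts (3 counts over the 6 libraries, counting error only). Cldn10, Cldn18, Cldn34a, Cldn34b3, Cldn34b4, Cldn34d, Gja10 and Gje1 were among these. Whether strand was used in counting is not stated, and exons of several tested members overlap a gene on the opposite strand: Cldn3 by 40 bases (Wbscr25), Cldn19 by 90 (Gm12927), Gjd2 by 57 (A530058N18Rik), Gja5 by 165 (Gpr89), Tjp3 by 40 (Apba3) and Jam3 by 1159 (Gm48796).

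Promoter sequences are shown for the members that had an unadjusted p under 0.05 and an entry in the RefSeq promoter table (GRCm38.p6), which holds 41 of the 61 members and has no entry for Cldn9. Shown are the bases before every annotated start of the gene, read 5′ to 3′ on the gene's strand. They lie at chr5:134985964-134986213 (plus strand), chr17:23679115-23679248 (plus strand), chr4:119255191-119255413 (plus strand) and chr2:114013620-114013869 (minus strand), and capitals mark GC boxes, the letters GGGCGG on either strand.
Cldn3: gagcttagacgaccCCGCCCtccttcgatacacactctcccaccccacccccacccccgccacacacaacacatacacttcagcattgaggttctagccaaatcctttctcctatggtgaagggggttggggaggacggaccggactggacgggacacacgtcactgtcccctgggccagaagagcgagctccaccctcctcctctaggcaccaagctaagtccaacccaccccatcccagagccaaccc
Cldn6: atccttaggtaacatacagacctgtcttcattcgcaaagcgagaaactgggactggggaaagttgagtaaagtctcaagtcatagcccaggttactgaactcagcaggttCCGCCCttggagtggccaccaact
Cldn19: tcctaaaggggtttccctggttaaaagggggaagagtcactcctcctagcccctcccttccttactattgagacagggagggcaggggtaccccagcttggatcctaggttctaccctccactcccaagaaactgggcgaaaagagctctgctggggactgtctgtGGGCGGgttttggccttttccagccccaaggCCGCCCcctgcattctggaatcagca
Gjd2: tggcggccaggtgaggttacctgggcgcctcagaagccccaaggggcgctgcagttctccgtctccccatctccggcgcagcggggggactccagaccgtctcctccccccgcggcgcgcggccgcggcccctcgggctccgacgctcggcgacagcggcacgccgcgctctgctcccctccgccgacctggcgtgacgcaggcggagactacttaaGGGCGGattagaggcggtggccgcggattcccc
The Cldn19 stretch of 223 bases had 2 GC boxes, and the stretches of Cldn3 (250 bases), Cldn6 (134 bases) and Gjd2 (250 bases) had 1 each. Among all 32851 windows of the table, cut to their first bases at the same lengths, 28.9%, 32.7%, 14.5% and 32.7% held at least 1. Windows cut to 223 or 134 bases lack the bases nearest their start. The Cldn19 and Cldn6 stretches end just before an annotated start, so these regions are not alike. An E-box (CANNTG) was found once in Gjd2 and in 0 of the other stretches, against 66.2% of all windows of 250 bases, 62.5% of those of 223 bases and 45.4% of those of 134 bases. The letters CCAAT and TATAAA, searched on both strands, were in 0 of the 4 stretches. The GC content was 60.8% in Cldn3, 49.3% in Cldn6, 57.4% in Cldn19 and 74.0% in Gjd2.

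Degenerated libraries were compared with control libraries to ask which junction genes differ in the modiolus in this model of SGN degeneration. A gene was called when edgeR's quasi-likelihood test gave an unadjusted p under 0.01 and its log2 fold change exceeded 0.2 in size. Cldn9 was the only member called, with a level 2.13-fold higher in the degenerated group. Epithelial claudins Cldn3, Cldn6 and Cldn7 also had higher mean levels, and Cldn19 of myelinating Schwann cells and Gjd2 of neurons had lower ones, without passing these criteria. The abundant members Cldn11, Tjp1 and Gjc3 had log2 fold changes between 0.04 and 0.19.

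The 1 called member made up 3.45% of the 29 tested, against 2.73% of all 14118 genes tested (2.01% higher and 0.715% lower), a share near the background. An unadjusted p under 0.05 was reached by 5 members (17.2%), 3 with a positive and 2 with a negative log2 fold change, against 9.68% of all genes (6.08% and 3.60%). In 7 members (24.1%) the values of both groups did not overlap, 5 being higher and 2 lower in degenerated libraries, against 17.7% of all genes (10.3% and 7.37%). The log2 fold change was positive in 22 of the 29 (75.9%), against 49.7% of all genes, and its median was 0.39 against -0.003. Leaving out each library in turn gave medians of 0.29 to 0.52 over the tested members, and limma-voom gave 0.31. Some of the positive values were near 0, such as 0.004 in Jam3. Adjusted by Benjamini-Hochberg over the whole table, edgeR gave 0 members under 0.05, and the smallest adjusted p among them was 0.194. DESeq2 gave 1 member at an adjusted p under 0.05, Cldn9, and limma-voom gave 0.

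**Figure D1:**
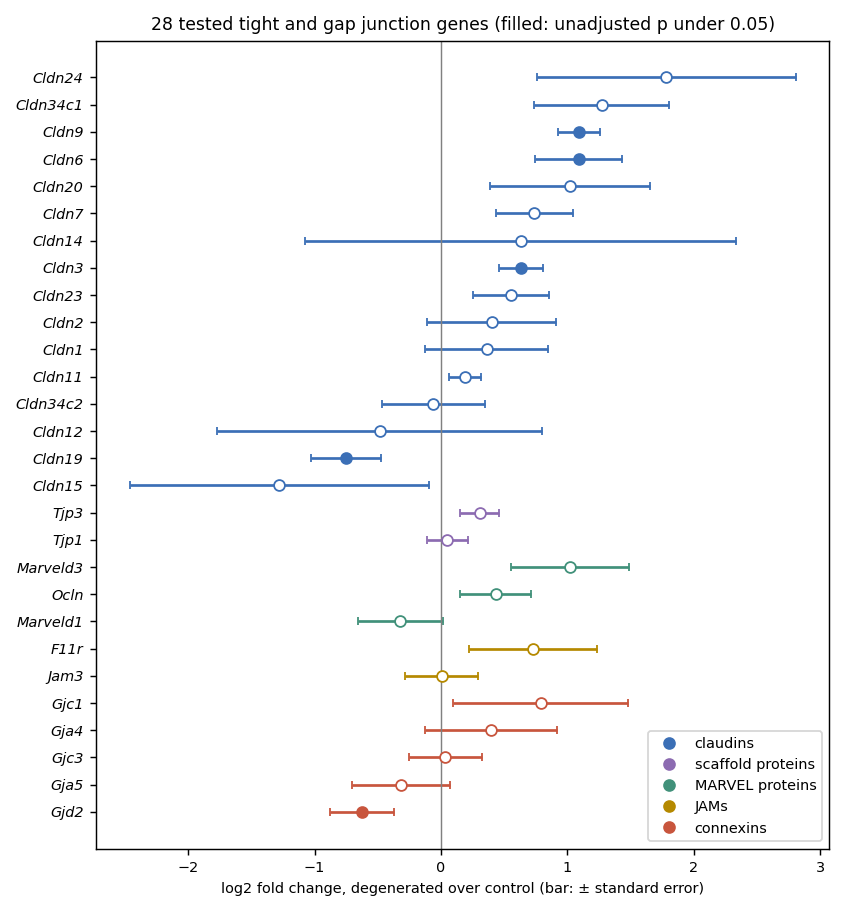
Log2 fold change (degenerated over control, x axis) of 28 of the 29 tested members, grouped by role, with bars for ± 1 standard error and filled points for an unadjusted p under 0.05. Claudins span -1.28 to 1.78, Cldn9 has the narrowest error among the claudins above 1, and Cldn12, Cldn14, Cldn15 and Cldn24 have errors above 1.

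Levels were compared between genes per length, as TPM over the listed transcripts (counts divided by transcript length and scaled to a common total). Cldn11, a claudin of myelin and of the basal cells of the stria vascularis, and Cldn9 had the highest levels, with means over the 6 libraries of 587 and 432 TPM. In control libraries Cldn11 had 527, 466 and 586 TPM and Cldn9 had 273, 234 and 278 TPM, so that Cldn11 lay above Cldn9 in each. In degenerated libraries Cldn11 had 693, 643 and 605 TPM and Cldn9 had 482, 591 and 732 TPM, and the ranges of both genes overlapped. The other members lay below both. Tjp1 (119 TPM), Cldn3 (88.9 TPM), Gjc3 (86.4 TPM) and Cldn7 (55.6 TPM) followed, and their ranges over the libraries overlapped from each to the next. Below Tjp3, at 33.0 TPM, the 22 remaining tested members had mean levels of at most 24.2 TPM.

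**Figure D2:**
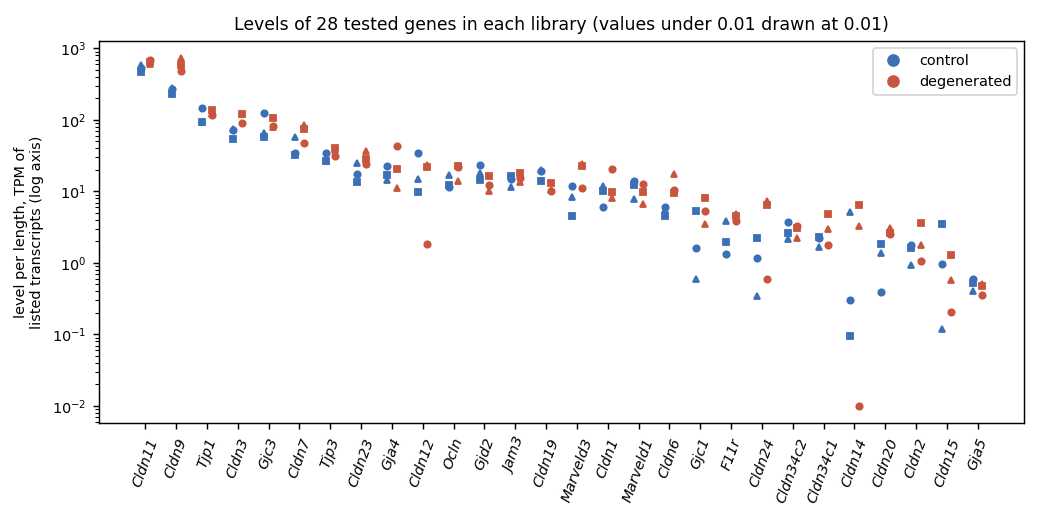
Level per length (TPM of listed transcripts, log axis) of 28 of the 29 tested members in each control (blue) and degenerated (red) library, ordered by their mean, with circles, squares and triangles for replicates 1, 2 and 3. Cldn11 and Cldn9 lead, and the 3 degenerated libraries of Cldn9 (482 to 732 TPM) stand clear of its 3 controls (234 to 278 TPM).

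Cldn9 (ENSMUSG00000066720, chromosome 17 of GRCm38 from 23682584 to 23684026, minus strand, its 1 annotated transcript listed) encodes a claudin of the inner ear epithelium that mice need for hearing. It had 201, 197 and 223 CPM in the control group and 366, 416 and 538 CPM in the degenerated group. Every degenerated library lay above every control. Means were 207 ± 13.9 CPM for the controls and 440.3 ± 88.6 CPM for the degenerated group (SD, n = 3 each). The log2 fold change came to 1.09 (standard error 0.16, unadjusted p 0.000509, adjusted p 0.194, edgeR). DESeq2 gave it an adjusted p of 6.58e-05. Leaving out each library in turn kept the log2 fold change between 0.92 and 1.20, and it was 1.16 with a term for the split on the first principal component.

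Cldn6 (ENSMUSG00000023906, chromosome 17 from 23679249 to 23682446, plus strand, 1 of 3 transcripts listed), a claudin best known from embryonic epithelia, ends 137 bases from Cldn9, towards which it is transcribed. Its promoter is printed above. It had 5.10, 4.32 and 4.98 CPM in the controls and 8.89, 7.47 and 14.3 CPM in the degenerated group, which did not overlap. This gave a log2 fold change of 1.09 with standard error 0.34 (unadjusted p 0.0184, adjusted p 0.417, edgeR). Its level was a small part of that of its neighbour, with 417 counts over the degenerated libraries against 18086 for Cldn9. Over the controls Cldn6 had 216 counts and Cldn9 had 9308. Strand use in counting is not stated, and whether reads of Cldn9 were counted in Cldn6 was not tested.

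Cldn3 (ENSMUSG00000070473, chromosome 5 from 134986214 to 134987472, plus strand, its 1 transcript listed) encodes a barrier-forming claudin of epithelia. It had 46.1, 39.3 and 51.9 CPM in the controls and 60.5, 73.6 and 78.5 CPM in the degenerated group. The degenerated libraries lay above the controls. This gave a log2 fold change of 0.63 with standard error 0.18 (unadjusted p 0.011, adjusted p 0.380, edgeR), just outside the threshold for a call, and with DESeq2 its unadjusted p was 0.00258. Without degenerated replicate 1 it was called, with a log2 fold change of 0.72.

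Cldn7, a claudin of the sides and base of epithelial cells, is described although the rule for named members did not select it, since its p was 0.05001, and it was added after its values were seen. Summed over 4 of its 5 transcripts it had 22.1, 23.3 and 37.6 CPM in the controls and 33.6, 48.7 and 56.1 CPM in the degenerated group. The highest control lay above the lowest degenerated library. Its log2 fold change came to 0.74 (standard error 0.30, adjusted p 0.516, edgeR). The 2 tested transcripts had log2 fold changes of opposite sign. Cldn7-201 had 21.4, 19.8 and 29.1 CPM in the controls and 33.3, 47.8 and 55.3 CPM in the degenerated group (log2 fold change 0.96, unadjusted p 0.0166 in the edgeR test of single transcripts). Cldn7-204, also annotated as protein-coding, had 12, 54 and 136 counts in the controls and 0, 0 and 1 count in the degenerated libraries (unadjusted p 0.00289, adjusted p 0.412 over 26065 transcripts tested with edgeR).

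**Figure D3:**
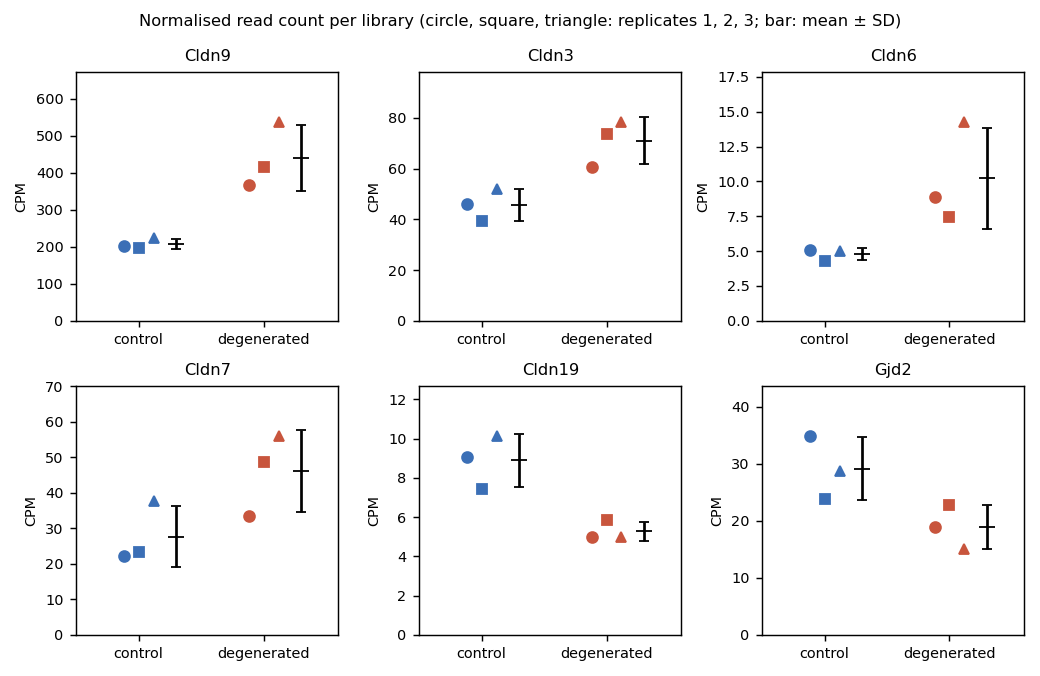
Normalised read counts (CPM, y axis from 0) of Cldn9, Cldn3, Cldn6, Cldn7, Cldn19 and Gjd2 in each control (blue) and degenerated (red) library, with the mean ± SD (n = 3) beside them. Degenerated libraries lie above all controls in Cldn9, Cldn3 and Cldn6, overlap with them in Cldn7, and lie below all controls in Cldn19 and Gjd2.

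Epithelial markers were read beside these claudins, and their part in the claudin values was not tested. Of a list of 10 epithelial and supporting cell markers, 8 were listed and 7 tested, all 7 had a positive log2 fold change (median 0.57) and 0 were called, Krt7 was at 22 counts over the 6 libraries, and the summed level was 370.4 to 512 CPM in the controls and 503 to 808 CPM in the degenerated group. Cldn3 came to 12.5%, 10.3% and 10.1% of this sum in the controls and to 12%, 11% and 9.71% in the degenerated group, so that its groups overlapped on this scale. Cldn9 came to 54.4%, 51.4% and 43.5% of it against 72.8%, 62.3% and 66.7%, which did not overlap. Cldn6 came to 1.38%, 1.13% and 0.972% against 1.77%, 1.12% and 1.77%, which overlapped. These ratios were chosen after the values were seen and were not tested.

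Cldn19 (ENSMUSG00000066058, chromosome 4 from 119255414 to 119262438, 1 of 2 transcripts listed) encodes a claudin of Schwann cell tight junctions in peripheral myelin. It had 9.07, 7.43 and 10.1 CPM in the controls and 4.99, 5.85 and 4.97 CPM in the degenerated group. The degenerated libraries lay below the controls. This gave a log2 fold change of -0.75 with standard error 0.27 (unadjusted p 0.0331, adjusted p 0.470, edgeR), and DESeq2 called it, at an unadjusted p of 0.0059. Of 10 Schwann cell markers, 7 were listed and tested, 3 with a positive and 4 with a negative log2 fold change (median -0.02), 0 were called, and 0 were at 0. Their log2 fold changes ran from -3.13 to 0.36. Their summed level was 5286 to 9299.7 CPM in the controls and 4544 to 7310 CPM in the degenerated group, and their part in the value of Cldn19 was not tested. Cldn19 came to 0.0975%, 0.141% and 0.160% of this sum in the controls. In the degenerated group it came to 0.0683%, 0.0861% and 0.109%, so that the groups overlapped on this scale. This ratio was chosen after the values were seen and was not tested.

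Cldn11 (ENSMUSG00000037625, chromosome 3 from 31149920 to 31164324, its 1 transcript listed) had 503, 507 and 608 CPM in the controls and 683, 587 and 576 CPM in the degenerated group, which overlapped. Its log2 fold change came to 0.19 (standard error 0.13, adjusted p 0.681, edgeR). Cldn14, a claudin of the hair cell region whose loss causes deafness, was carried by few counts, with 0.199, 0.0707 and 3.57 CPM in the controls and 0, 3.87 and 2.13 CPM in the degenerated group. Control replicates 1 and 2 and degenerated replicate 1 held at most 3 counts each, and the log2 fold change of 0.63 had a standard error of 1.70.

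The other 9 tested claudins had unadjusted p between 0.0537 and 0.887 in edgeR's test. Among them Cldn23 had a log2 fold change of 0.55 and Cldn1, a claudin of the epidermal barrier, one of 0.36 that became -0.22 without degenerated replicate 1. Cldn20 (38 counts over the degenerated and 20 over the control libraries) had groups that did not overlap, with a log2 fold change of 1.02 and a standard error of 0.63. Cldn2 and Cldn15, which form channels for small ions, had log2 fold changes of 0.40 and -1.28 with standard errors of 0.51 and 1.18. Single libraries turned both signs, to -0.12 in Cldn2 without degenerated replicate 2 and to 0.30 in Cldn15 without control replicate 2. Cldn12 had 60.7, 16.3 and 27.3 CPM in the controls and 0.410, 34.3 and 39.8 CPM in the degenerated group, with degenerated replicate 1 far below the rest. Its log2 fold change of -0.49 became 0.18 without control replicate 1 and 0.079 without degenerated replicate 1. Cldn34c1 and Cldn34c2, with log2 fold changes of 1.27 and -0.06 (0.11 without control replicate 1), belong to a group of copies on chromosome X between which reads can be shared, and Cldn24 (1.78, standard error 1.03) rested on 64 counts in the degenerated libraries.

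Of the scaffold proteins, Tjp1 (ENSMUSG00000030516, chromosome 7 from 65296165 to 65527781, 4 of 7 transcripts listed), the scaffold found in most tight junctions, had 474, 343 and 333 CPM in the controls and 390, 416 and 384 CPM in the degenerated group. The groups overlapped. Its log2 fold change of 0.05 had a standard error of 0.16, and its sign turned under 4 alternatives. Transcript Tjp1-201 had a log2 fold change of 0.17 and Tjp1-202 of -0.32, neither under an unadjusted p of 0.05 in edgeR's test. Tjp3, a scaffold restricted to epithelia, had 38.0, 37.2 and 40.3 CPM in the controls and 41.9, 52.3 and 48.6 CPM in the degenerated group, which did not overlap (log2 fold change 0.31, standard error 0.15, adjusted p 0.590, edgeR).

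Ocln, which encodes occludin (2 of 5 transcripts listed), had 15.2, 18.0 and 23.9 CPM in the controls and 29.5, 28.6 and 18.9 CPM in the degenerated group, with an overlap made by degenerated replicate 3. Its log2 fold change of 0.43 had a standard error of 0.28. The 2 transcripts differed by library: Ocln-201 had 7.58, 5.36 and 4.47 CPM in the controls and 7.83, 12.2 and 12.5 CPM in the degenerated group (log2 fold change 0.90), while Ocln-205 had 8.13, 13.0 and 19.8 CPM against 21.5, 16 and 6.39 CPM (log2 fold change 0.10). Marveld3 had 7.68, 2.90 and 5.62 CPM in the controls and 7.05, 12 and 13.9 CPM in the degenerated group (log2 fold change 1.02, standard error 0.46, adjusted p 0.555, edgeR). Marveld1 had 26.8, 26.7 and 16.5 CPM against 25, 18.1 and 12.9 CPM, and both groups of each gene overlapped. Marveld2, which encodes tricellulin of three-cell contacts, had 1 of 4 transcripts listed and 0, 0 and 62 counts in control and 2, 0 and 0 counts in degenerated libraries, and it was not tested.

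Among the JAMs, F11r (JAM-A) had 0.463, 0.778 and 1.47 CPM in the controls and 1.37, 1.48 and 1.66 CPM in the degenerated group, all from a transcript with a retained intron (log2 fold change 0.72, standard error 0.51). Jam3 had 7.94, 10.8 and 7.27 CPM against 8.62, 10.001 and 7.42 CPM (log2 fold change 0.004, standard error 0.29). Both genes had overlapping groups and 0 listed protein-coding transcripts. The values therefore do not describe the coding messages of these JAMs.

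**Figure D4:**
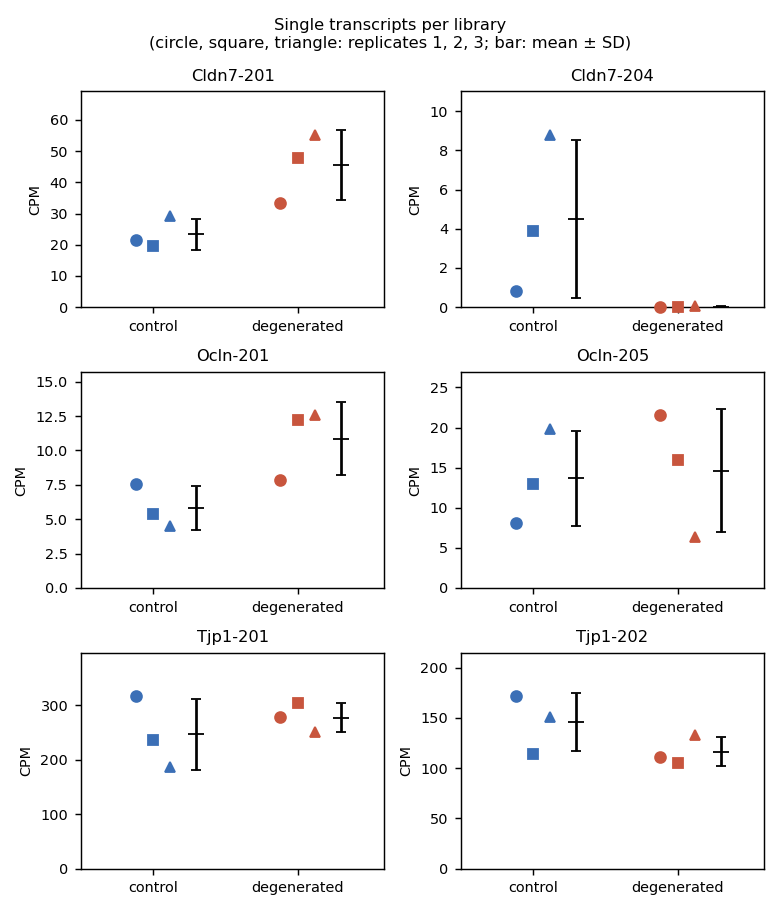
CPM (y axes from 0) of 2 transcripts each of Cldn7, Ocln and Tjp1 in every control (blue) and degenerated (red) library, with the mean ± SD (n = 3). Cldn7-201 is higher in degenerated libraries where Cldn7-204 is at 0 to 1 count, and the order of the libraries in Ocln-205 is not that in Ocln-201.

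Connexins were led by Gjc3 (ENSMUSG00000056966, chromosome 5 from 137953461 to 137963098, both transcripts listed), a connexin of Schwann cells. It had 253, 129 and 137 CPM in the controls and 170, 204 and 157 CPM in the degenerated group. Control replicate 1 lay above all others and the remaining controls below all degenerated libraries, so the groups overlapped. The log2 fold change of 0.04 had a standard error of 0.29 and a sign that turned under 6 alternatives. In control replicate 1 the Schwann cell markers had their highest sum, 9299.7 CPM.

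Gjd2 (ENSMUSG00000068615, chromosome 2 from 114009601 to 114013619, its 1 transcript listed) encodes the connexin of electrical synapses between neurons. It had 34.95, 23.8 and 28.7 CPM in the controls and 18.9, 22.8 and 15 CPM in the degenerated group. The degenerated libraries lay below the controls. This gave a log2 fold change of -0.63 with standard error 0.25 (unadjusted p 0.0478, adjusted p 0.513, edgeR), and without control replicate 1 it was -0.48. Of the 14 SGN markers, 11 had a negative log2 fold change (median -0.59) and Calb2 and Pvalb were called lower. An unadjusted p under 0.05 in edgeR's test was reached by 7 of them, all lower, against 3.60% of all genes. Lower levels without overlap were seen in 8, against 7.37% of all genes. The marker list was chosen with earlier results of these data known, and the paper names Calb2, Snap25 and Nefh in its degeneration modules. These shares are therefore descriptive and not an independent test. Gjd2 came to 0.219%, 0.192% and 0.202% of the sum of these markers in the controls and to 0.213%, 0.207% and 0.203% in the degenerated group, which overlapped. This ratio was chosen after the values were seen and was not tested.

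Gja4, a connexin of arterial endothelium, had 19.3, 16.8 and 13.5 CPM in the controls and 38.8, 16.8 and 9.71 CPM in the degenerated group, which overlapped. Its log2 fold change of 0.39 had a standard error of 0.52 and became -0.33 without degenerated replicate 1. Gjc1 and Gja5 had mean levels of at most 5.88 CPM in either group, with log2 fold changes of 0.79 and -0.32 and overlapping groups. Gja1, the most widely expressed connexin of the body, was not tested: the 4 of its 8 transcripts that are listed had 119, 0 and 0 counts in control and 784, 4 and 2 counts in degenerated libraries. Nearly all of these counts came from Gja1-206, so the table holds no usable level of the gene. Gjb1, a connexin of Schwann cells, had 1 count over the 6 libraries in 2 of its 3 transcripts. Its other transcript is not listed, so the level of the whole gene is not known here.

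Partners of the junction proteins, from 5 lists with 71 genes, were read for comparison. Of these, 52 were tested, 34 with a positive log2 fold change (median 0.21), and 6 were called higher and 0 lower, 11.5% against 2.73% of all genes. An unadjusted p under 0.05 was reached by 14 of the 52, 10 higher and 4 lower, against 9.68% of all genes (6.08% and 3.60%). The smallest adjusted p was 0.274, that of Dsp (edgeR). The partner lists were chosen with earlier results of these data known, and the paper names Cdh1 in a degeneration module. The shares of partners are therefore descriptive and not an independent test. The adherens junction and desmosome list held 4 of the 6, among 15 tested genes with a median of 0.47, and its summed level was 1427 to 1739 CPM in the controls and 2089 to 2107 CPM in the degenerated group. These were Cdh1, the cadherin of epithelia, with 337, 321 and 305 CPM in the controls and 403, 488 and 455 CPM in the degenerated group (log2 fold change 0.48, standard error 0.11), Dsp, which encodes desmoplakin (0.93, standard error 0.18), Nectin2 (0.47, standard error 0.12) and Ctnnd1. Ctnnd1, which binds cadherin tails, had 27.9, 25.8 and 25.8 CPM in the controls and 238, 61.5 and 420.0 CPM in the degenerated group, over 17 of 30 transcripts. Its log2 fold change was 3.18, with a wide spread between the degenerated libraries. Transcripts that are not listed were not counted, so the level of the whole gene is not known here. Cdh2, the cadherin of neurons and mesenchyme, had a log2 fold change of -0.41 (unadjusted p 0.0173) and was not called.

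Ildr1, an angulin that recruits tricellulin to three-cell contacts and is needed for hearing, was called, with 33.2, 27.9 and 28.5 CPM in the controls and 38.8, 64.9 and 60.6 CPM in the degenerated group (log2 fold change 0.87, standard error 0.24, adjusted p 0.362, edgeR). It was the 1 called gene among 6 tested angulins and Ig proteins (median 0.35), and Magi3, a scaffold, was the 1 called among 26 tested cytoplasmic partners (median 0.10), with 77.2 ± 7.96 against 113 ± 12.9 CPM (SD, n = 3 each). Among the claudin-like tetraspan proteins 0 of 4 were called (median 0.10). Panx3 was the 1 tested pannexin, with a log2 fold change of -1.68, and Panx1 had 57, 65 and 5 counts in control and 0, 0 and 0 in degenerated libraries without being tested. Single libraries moved the number of partners called higher, which was 4, 2 and 1 with control replicate 1, 2 or 3 left out and 3, 1 and 2 with degenerated replicate 1, 2 or 3 left out. Without control replicate 3, 3 partners were also called lower, and 0 were in the other 5 of these fits.

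**Figure D5:**
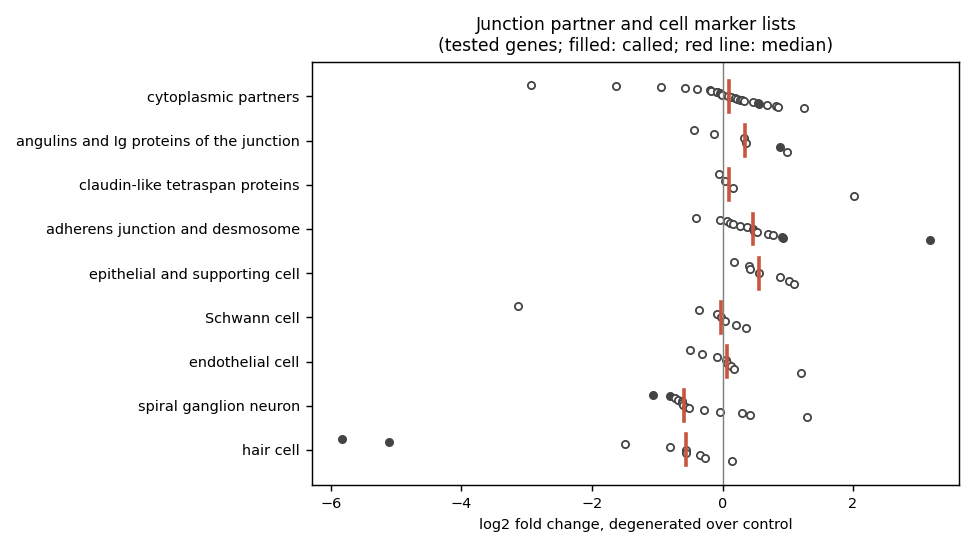
Log2 fold changes (degenerated over control, x axis) of the tested genes in 4 lists of junction partners and 5 lists of cell type markers, with filled points for called genes and a red line at each list's median. The median is 0.57 in the epithelial markers and 0.47 in the adherens junction and desmosome list, and it is -0.59 in the SGN and -0.56 in the hair cell markers.

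Among the other cell type markers, 2 of 9 tested hair cell genes were called lower, Ocm and Slc26a5, and the summed level of the list was 769 to 1078 CPM in the controls and 529 to 616 CPM in the degenerated group. Endothelial markers summed to 228 to 283 CPM and 247 to 287 CPM (0 of 8 tested called). Stria vascularis markers, of which Kcnj10 was called higher among 5 tested, summed to 1475 to 1933 and 2069.8 to 2935 CPM, and macrophage markers, with 2 of 5 tested called higher (median log2 fold change 0.63), to 426 to 484 and 489.6 to 679 CPM. Fibroblast markers (1 of 5 tested called lower) summed to 2740.3 to 3436 and 2247 to 2999 CPM, and bone markers to 5531 to 7682 and 5816 to 6332 CPM. All 6 tested bone markers had a negative log2 fold change (median -0.94), and 2 were called lower, 4 had an unadjusted p under 0.05 in edgeR's test and 4 had groups that did not overlap. Of all genes tested, 2.01% were called higher and 0.715% lower. An unadjusted p under 0.05 with a negative log2 fold change was reached by 3.60% of all genes, and 7.37% were lower without overlap. The marker lists were chosen with earlier results of these data known, so their shares are descriptive. The part of these cell types in the junction gene values was not tested.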

How the data were processed

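RNA of the cochlear modiolus was sequenced in 3 control and 3 degenerated libraries, which were grouped by the labels. The authors aligned reads with Hisat2 2.1.0 and evaluated expression with StringTie 1.3.3b. The submitters' processing notes name Bowtie 0.12.2 and the builds mm8 and mm10 instead. The sources used here do not give the counting step or the annotation. The authors deposited 1 table of raw counts, whole numbers without normalization, for 65535 Ensembl transcripts. Of these, 65272 were matched to GENCODE M21 (GRCm38) and their counts were summed per gene. The 263 others, with 0.125% of counts, were left out.

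The whole table was fitted without covariates in edgeR 4.0.16 (R 4.3.3), with filterByExpr, TMM and the robust quasi-likelihood F test. Library totals were 12480876 to 15549319 counts, and they cover the listed transcripts only. The common biological coefficient of variation was 0.488. Standard errors are the log2 fold change over the square root of F. CPM use the TMM factors. TPM were computed from the counts and transcript lengths of the listed transcripts.

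Alternatives were DESeq2 1.42.0, limma-voom (limma 3.58.1), RLE and upper-quartile normalization, no filter, a mean count of 10, genes with every transcript listed, the replicate number as a block, single transcripts and each library left out. A term for the split on the first principal component of 500 genes was added after seeing the data. Members and lists were chosen with earlier results of these data known. Full values are given for tested members with an unadjusted p under 0.05, for the 3 of each role with the highest TPM, and for Cldn11, Cldn14, Cldn19, Tjp1, Ocln, F11r and Gjc3. The steps were tested on simulated data. Some members count in the totals but are not reported here by name. An exact permutation test (two-sided) of 3 against 3 cannot go below 0.1, so none was run.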

Additional observations from a re-analysis of the deposited data

How the results depend on the processing

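Cldn9 was called under every alternative run, with log2 fold changes of 0.92 to 1.20. Leaving out single libraries gave 1 to 3 members called higher, 0 called lower and 0 at an adjusted p under 0.05, and 1 to 4 partner genes called higher and 0 to 3 called lower. DESeq2 called 3 members higher (Cldn3, Cldn6 and Cldn9) and 1 lower (Cldn19), with 1 at an adjusted p under 0.05, and 9 partners higher and 2 lower. In the fit to genes with every transcript listed, which tests fewer genes, 2 members (Cldn3 and Cldn9) and 1 partner were called higher. No filter on low counts gave 1 partner called lower, as did the term for the split on the first principal component.

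With the replicate number as a block, 1 member and 1 partner were called higher. Deviations from the group means correlated at 0.137, -0.0833 and 0.0641 between libraries of the same number, and not every library correlated best with its own number, so the numbers were not taken to pair the libraries. Over all genes the block gave 160 higher and 58 lower calls, against 284 and 101. DESeq2 gave 479 and 306, and the number at an adjusted p under 0.05 was 383 with DESeq2 and 0 with edgeR's quasi-likelihood test, in which 1367 had an unadjusted p under 0.05.

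Among the members that the rule for full values selected, those whose log2 fold change turned sign under an alternative had values between 0.004 and 0.63 in the main comparison. Left-out libraries gave ranges of -0.29 to 3.79 in Cldn14, -0.33 to 0.74 in Gja4, -0.14 to 0.40 in Gjc3, -0.12 to 0.19 in Jam3 and -0.047 to 0.22 in Tjp1. Turned values in Jam3 were -0.0095 with DESeq2, -0.012 with RLE, -0.0047 with upper-quartile normalization and -0.014 without a filter. The term for the split gave -0.056 in Gja4, -0.096 in Gjc3, -0.025 in Jam3 and -0.024 in Tjp1. Single transcripts gave -0.0095 (Gjc3-201), -0.40 (Gjc3-202), -0.057 (Jam3-202), -0.034 (Jam3-204), -0.32 (Tjp1-202), -1.25 (Tjp3-202) and -0.23 (Tjp3-206). For turned values the cause was not tested. The partial listing of transcripts limits most members, and the spread between libraries limits others, such as Cldn14 with a standard error of 1.70.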
